A study of Mus musculus with 4 samples.

Results

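The insulin-like growth factor (IGF) family was described through 10 mouse genes: the ligand genes Igf1 and Igf2, the receptor genes Igf1r and Igf2r, and the binding protein genes Igfbp2, Igfbp3, Igfbp4, Igfbp5, Igfbp6 and Igfbp7. The genes were taken by symbol from the platform annotation, which gave 28 probe sets with exactly 1 of these symbols, out of 18193 genes measured in all. The probe set with the highest mean signal over the 4 arrays stood for its gene, and the others served as a check. Genes were tested when their mean log2(signal + 16) was at least 5.37, the median over the probe sets of the array, and all 10 passed this filter, as did 11677 of the 18193 genes.

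One group, VEGFD, was 2 arrays of collecting lymphatic cells from mice that carried flank tumours of human embryonic kidney-derived 293EBNA cells with a vector for VEGFD, the gene of a lymphatic growth factor. The other group, Apex, was 2 arrays from mice whose 293EBNA tumours held the empty Apex vector, so both groups bore tumours and none was tumour-free. Tumours were grown to 2000 mm3 in either group, a dye injected into the tumour marked its draining collecting lymphatics, and endothelial cells were taken from the dissected vessels by magnetic sorting. The extraction label names lymph node endothelium instead, and the groups follow the other labels. Each group is labelled as 2 biological replicates, and the sources used here do not give the strain or age of the mice or say whether a replicate was 1 mouse or a pool.

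IGF-1 and IGF-2 are small secreted hormones that promote growth and survival, mostly through the receptor tyrosine kinase made from Igf1r. The product of Igf2r, which also carries mannose 6-phosphate-tagged enzymes, takes up IGF-2 for breakdown. Binding proteins hold IGFs outside the cell, and proteases release the hormone by cutting them. In vessel walls, IGFs and their binding proteins are made by stromal, muscle and endothelial cells alike.

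The endothelial label was borne out by the marker genes mainly on Apex replicate 2. Pecam1, the gene of the endothelial surface protein CD31, had signals of 3.25 and 2.22 on VEGFD arrays, against 2.92 and 141 on Apex arrays. The endothelial gene Cdh5 had 4.23 and 3.11, against 12.98 and 146, and the lymphatic gene Lyve1 had 22.02 and 14.5, against 16.5 and 151.4. These were below the filter signal of 25.3 on all arrays but Apex replicate 2. Prox1, which sets lymphatic identity, was at most 11.6 on any array. Emcn, also endothelial, was highest on Apex replicate 2, at 2670.4, but had 105.99 and 23.97 on VEGFD arrays and 48.4 on Apex replicate 1. The summed signal of 12 pan-endothelial markers was 1194 and 468 on VEGFD replicates 1 and 2, against 756 and 4364 on Apex replicates 1 and 2. The sum of 8 fibroblast markers lay between 20689 and 22993 on all arrays, carried by bright genes such as the collagen gene Col1a2, while its member Dpt had 204 and 168 on VEGFD arrays, against 2725 and 2407 on Apex arrays. Adipocyte markers, 7 of 8 measured, summed to 3853 and 3127 on VEGFD arrays, against 6361 and 8120.3 on Apex arrays. Lymphatic markers (7 of 8) summed to 1501 and 2060.2, against 1204 and 2336, leukocyte markers (7 of 8) to 459 and 672, against 602 and 561, and epithelial markers (7 of 7) to 237 and 150.1, against 393 and 499. Most of the lymphatic sum was Pdpn, at 1237 and 1715 on VEGFD arrays, against 963 and 1622 on Apex arrays. In bulk samples of this kind, fewer cells of a type and less RNA per cell cannot be told apart. The arrays are named by their labels.

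No gene of the family passed the main test between VEGFD and Apex arrays, which with 2 arrays a group does not show that their levels were alike. In limma, 0 of the 10 had an adjusted p below 0.05, where 0% of the 11677 genes tested were called, and 0 of 10 had an unadjusted p below 0.05, where 5.7% of all genes did. The values of the 2 VEGFD arrays both lay on one side of both Apex values for 3 of 10 genes, Igfbp4 and Igfbp6 below and Igfbp7 above, against 38.5% of all tested genes. At least 2-fold apart in this way was 1 of 10, Igfbp4, against 3.88% of all tested genes. The median log2 change over the family was -0.25, with 2 genes above and 8 below 0. Over all tested genes it was -0.035, with 5417 (46.4%) above and 6260 (53.6%) below 0. With arrays centred on their medians the all-gene median moved by 0.12, and the splits became 4 above and 6 below for the family and 6923 above and 4754 below for all genes. An exact permutation test of 2 arrays against 2 cannot go below p = 0.33, so no single gene could pass such a test.

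**Figure D1:**
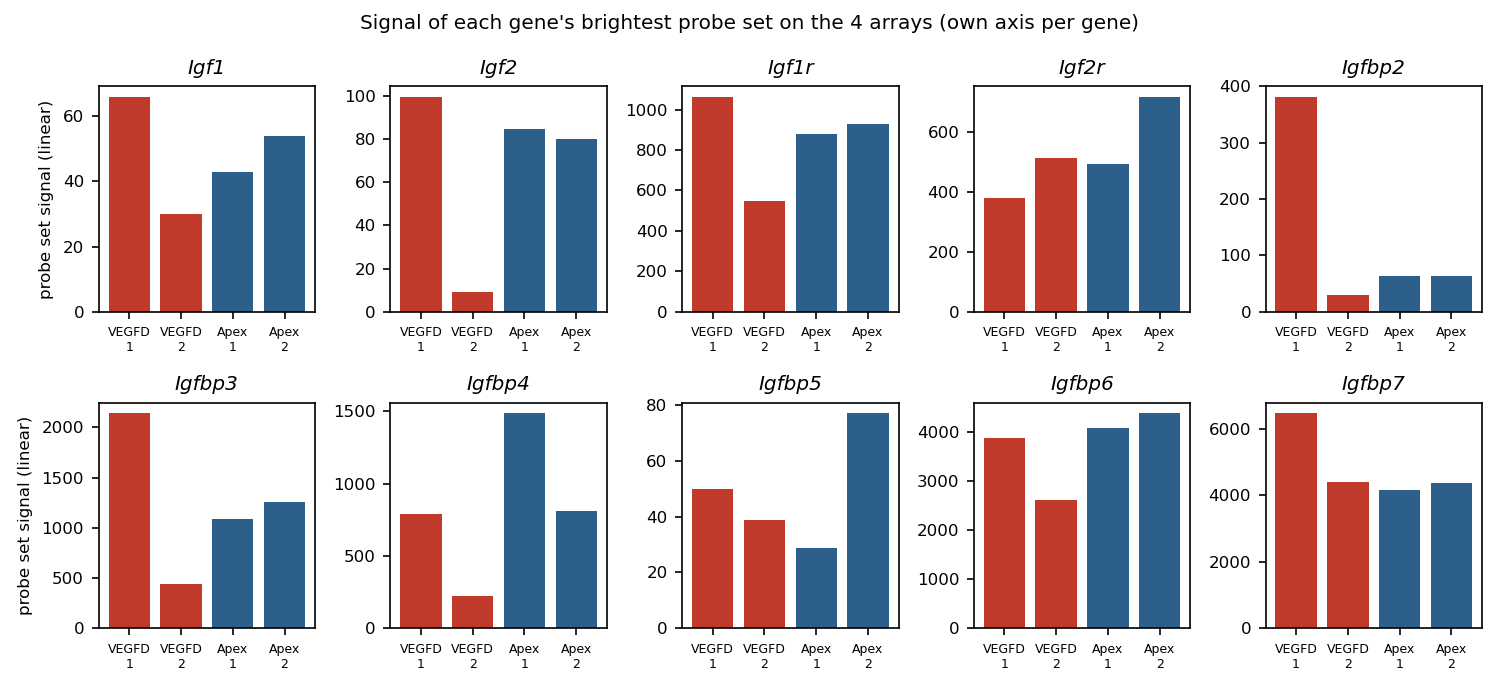
Linear signal of the brightest probe set of each of the 10 genes (vertical axes, each from 0 and with its own scale) on the 2 VEGFD arrays (red) and the 2 Apex arrays (blue), 1 bar per array. VEGFD replicate 1 was the highest array for Igf1, Igf2, Igf1r, Igfbp2, Igfbp3 and Igfbp7, and VEGFD replicate 2 was the lowest for 7 of the 10 genes.

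Among the ligands, Igf1, whose product circulates from the liver and is also made by stromal cells, had signals of 65.9 and 29.9 on VEGFD arrays, against 42.9 and 53.9 on Apex arrays. The VEGFD arrays enclosed both Apex arrays, and the log2 change was -0.066 ± 0.37 (SE, n = 2 and 2), with a 95% interval from -1.0 to 0.87. Its sign turned to 0.057 with arrays centred on their medians and to 0.031 after quantile normalization. Of its 4 probe sets, 2 lay above and 2 below 0. Igf2, the imprinted fetal growth factor gene, had signals of 99.6 and 9.35 on VEGFD arrays, against 84.6 and 80.0 on Apex arrays. VEGFD replicate 2 alone was low, under 25.3, the signal at which the filter was set, while the other 3 arrays lay close together. The log2 change of Igf2 was -0.86 ± 0.72. Dropping VEGFD replicate 2 gave 0.23, and dropping VEGFD replicate 1 gave -1.96. The second Igf2 probe set was dim, at most 26.2 on any array.

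Among the receptors, Igf1r, the signalling receptor gene, had signals of 1063 and 547 on VEGFD arrays, against 877 and 931 on Apex arrays. Its brightest probe set had a log2 change of -0.24 ± 0.35, and its 4 other probe sets were all above 0, between 0.14 and 0.46, so that the averaged probe sets gave 0.18. The brightest of these 4 had 454 and 346 on VEGFD arrays, against 308 and 261 on Apex arrays, higher without overlap. The probe sets of Igf1r thus did not share a direction. Igf2r, the receptor gene for IGF-2 uptake, had signals of 379 and 512 on VEGFD arrays, against 494 and 719 on Apex arrays. The groups overlapped, and the log2 change was -0.42 ± 0.30, with a 95% interval from -1.17 to 0.32. The second Igf2r probe set had 123 and 130 on VEGFD arrays, against 189 and 264 on Apex arrays, a difference of -0.75 without overlap. Igf2r was below 0 in both probe sets and stayed below 0 with any 1 array left out, from -0.69 to -0.16.

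Igfbp4 had the largest log2 change of the family. Its product binds both IGFs and is known mainly as an inhibitor of their action, which ends when the protease PAPP-A cuts it. Igfbp4 had signals of 789 and 225 on VEGFD arrays, against 1487 and 809 on Apex arrays. Both VEGFD arrays lay below both Apex arrays, but VEGFD replicate 1 and Apex replicate 2 were nearly level, and with arrays centred on their medians the groups overlapped. The log2 change was -1.34 ± 0.63, a fold of 0.395, with a 95% interval from -2.93 to 0.25 and a limma adjusted p of 0.823. With 1 array dropped it was -2.21 (VEGFD replicate 1 dropped), -0.47 (VEGFD replicate 2), -0.91 (Apex replicate 1) and -1.77 (Apex replicate 2). Of the 6 probe sets of Igfbp4, the 5 above the filter all had lower means in VEGFD arrays, from -1.37 to -0.38, and the dimmest was at 0.73. Not all of these 5 separated the groups. Values overlapped in the probe set with 433 and 121 on VEGFD arrays, against 827 and 387 on Apex arrays. They also overlapped in that with 151 and 65.5 on VEGFD arrays, against 187 and 97.9 on Apex arrays. Averaged over all 6, the log2 change was -0.74.

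Igfbp3 encodes the main carrier of IGFs in blood. It had signals of 2142 and 441 on VEGFD arrays, against 1092 and 1256 on Apex arrays. The VEGFD arrays were the highest and the lowest of the 4, and the log2 change of -0.26 ± 0.72 had a 95% interval from -2.07 to 1.55. The second Igfbp3 probe set, with 1244 and 288 on VEGFD arrays, against 565 and 442 on Apex arrays, had the same order of VEGFD arrays around the Apex arrays and a difference of 0.26. Igfbp2, whose product binds both IGFs and also attaches to integrins, had signals of 382 and 29.7 on VEGFD arrays, against 64.4 and 64.4 on Apex arrays. VEGFD replicate 1 stood alone above the other arrays. The log2 change of Igfbp2 was 0.75 ± 0.98. Dropping VEGFD replicate 1 gave -0.82, and dropping VEGFD replicate 2 gave 2.31, each from a fit that holds 1 VEGFD array. Igfbp2 had 1 probe set, so no other probe set checks it.

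Igfbp5, whose product binds to extracellular matrix, had signals of 49.9 and 38.9 on VEGFD arrays, against 28.8 and 77.0 on Apex arrays. Here it was the Apex arrays that enclosed the VEGFD arrays, with a log2 change of -0.10 ± 0.42 that was 0.021 with arrays centred on their medians. The second Igfbp5 probe set, below the filter, had 15.5 and 0.88 on VEGFD arrays, against 18.9 and 17.3 on Apex arrays. Its difference was -0.56 without overlap, and averaged probe sets gave -0.33. Igfbp6, whose product prefers IGF-2 over IGF-1, had signals of 3877 and 2617 on VEGFD arrays, against 4095 and 4391 on Apex arrays. Both VEGFD arrays lay below the Apex arrays, VEGFD replicate 1 only slightly so, and the log2 change was -0.41 ± 0.26 (95% interval -1.06 to 0.24). Dropping VEGFD replicate 2 gave -0.13 for Igfbp6, and dropping VEGFD replicate 1 gave -0.69. Igfbp7, which encodes a secreted vessel-wall protein with weak IGF binding, had signals of 6459 and 4402 on VEGFD arrays, against 4165 and 4356 on Apex arrays. VEGFD replicate 2 exceeded Apex replicate 2 by little, and the log2 change was 0.32 ± 0.25 (95% interval -0.32 to 0.96). A second Igfbp7 probe set, at 117 and 118 on VEGFD arrays, against 96.8 and 85.3 on Apex arrays, had the same difference of 0.32 without overlap, and the third, below the filter at no more than 7.25 on any array, had -0.19. With 1 array dropped the log2 change of Igfbp7 ran from 0.047 (VEGFD replicate 1 dropped) to 0.60 (VEGFD replicate 2 dropped).

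**Figure D2:**
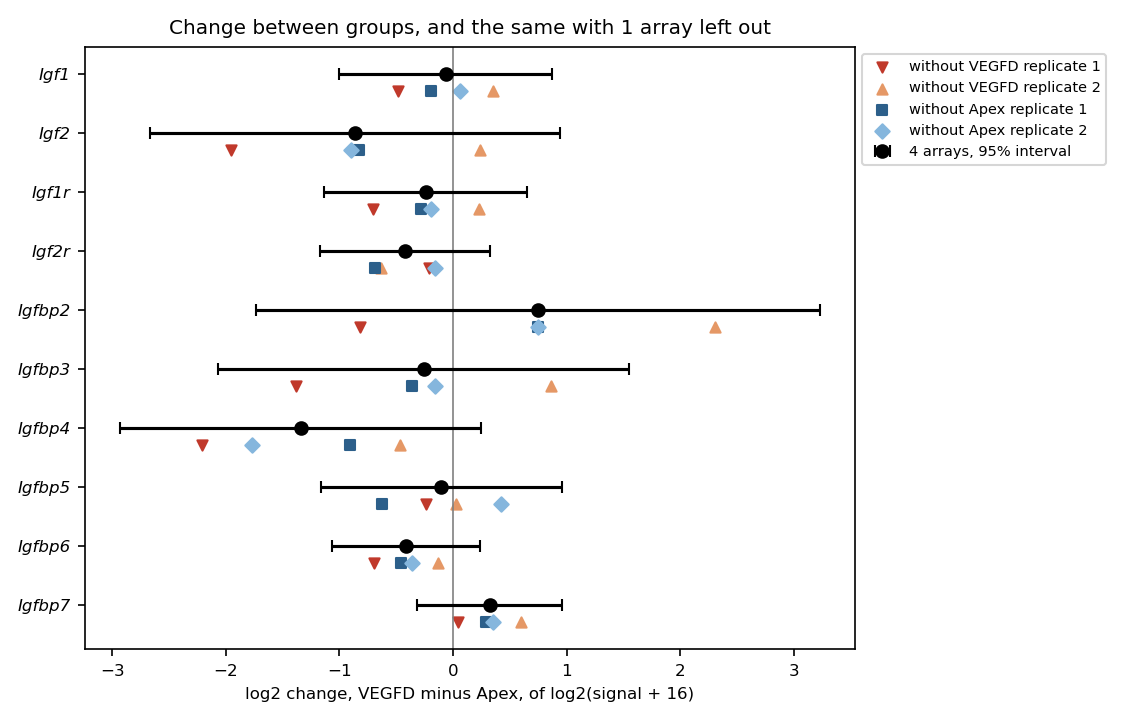
Log2 change of each gene, VEGFD minus Apex, in units of log2(signal + 16) (horizontal axis), with the 95% interval of the limma fit on 4 arrays (black) and the value with each array left out (coloured symbols). Every interval crosses 0, and the values with VEGFD replicate 1 dropped (from -2.21 for Igfbp4 to 0.047 for Igfbp7) and with VEGFD replicate 2 dropped (from -0.63 for Igf2r to 2.31 for Igfbp2) lie farthest apart for Igfbp2, Igfbp3 and Igf2.

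**Figure D3:**
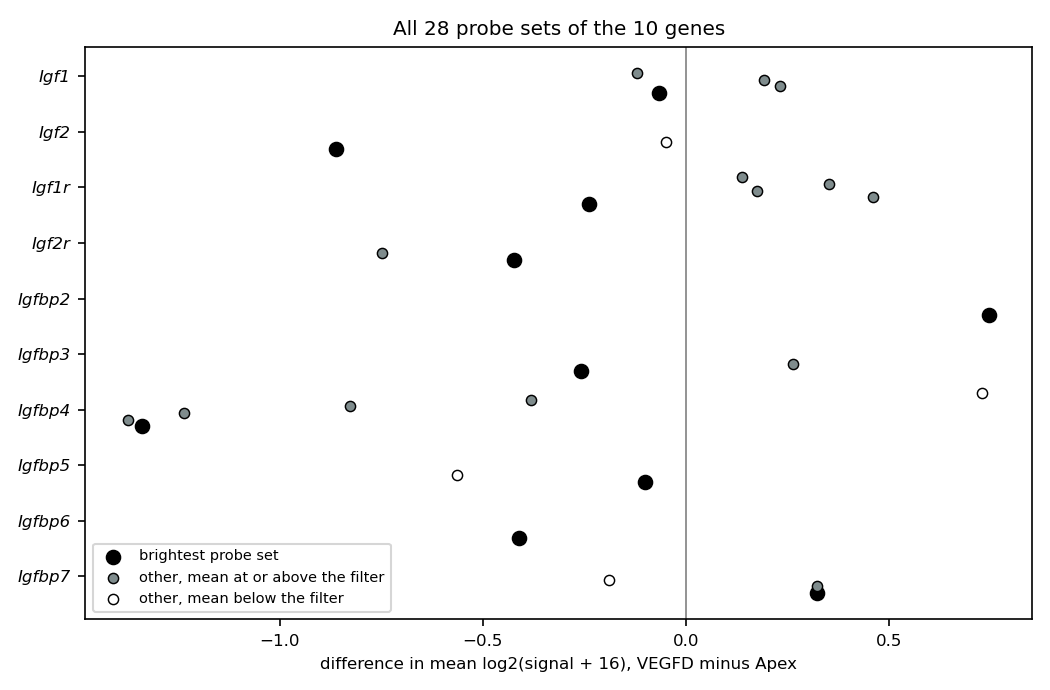
Difference in mean log2(signal + 16), VEGFD minus Apex (horizontal axis), for each of the 28 probe sets of the 10 genes, with the brightest in black, other probe sets at or above the filter in grey and those below it in white. The 5 Igfbp4 probe sets above the filter lie from -1.37 to -0.38, and the 4 dimmer Igf1r probe sets lie on the other side of 0 from the brightest.

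The widest differences in the family lay between the replicates of the VEGFD group. At least 2-fold higher in VEGFD replicate 1 than in VEGFD replicate 2, on the log2(signal + 16) scale, were 4 of the 10 genes, Igfbp2, Igfbp3, Igf2 and Igfbp4, against 6.56% of all tested genes. At least 2-fold in the other direction were 0 of 10, against 5.53% of all tested genes. The differences were 3.12 for Igfbp2, 2.24 for Igfbp3, 2.19 for Igf2 and 1.74 for Igfbp4. Igf2 and Igfbp2 were dim on VEGFD replicate 2, at 9.35 and 29.7, so their size depended on the 16 added to the signal. With 1 or 64 added instead, the difference was 3.28 or 1.16 for Igf2 and 3.64 or 2.25 for Igfbp2. It was 2.28 or 2.13 for Igfbp3 and 1.81 or 1.56 for Igfbp4. The second Igf2 probe set, below the filter, differed by 0.50. Of the 10 genes 9 were higher in VEGFD replicate 1, all but Igf2r, and the matching share of all tested genes was not counted. Of the 28 probe sets 24 were higher in VEGFD replicate 1, but probe sets of the same gene are not separate members, and Igfbp4 alone gave 6. The median difference, VEGFD replicate 1 minus VEGFD replicate 2, was 0.89 over the family and 0.036 over all tested genes. VEGFD replicate 2 was the lowest of the 4 arrays for 7 of the 10 genes, against 35.5% of all tested genes. The 27 other IGF pathway genes described below leaned the same way, with 6 at least 2-fold higher in VEGFD replicate 1, 1 at least 2-fold higher in VEGFD replicate 2, and a median difference of 0.40. This pattern was noticed in the data, each side of it is 1 array, and no test was made.

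The Apex replicates differed less in most of the family. At least 2-fold apart between Apex replicates was 1 of 10 genes, Igfbp5, against 4.98% of all tested genes, and at least 2-fold apart between VEGFD replicates were 4 of 10, against 12.1%. The median size of the difference was 0.89 between VEGFD replicates and 0.15 between Apex replicates in the family, and 0.35 and 0.25 over all tested genes. Igfbp2 differed by -0.0016 between the Apex replicates, Igf2 by 0.068 and Igfbp3 by -0.20. Igfbp5, at -1.05 between Apex replicates and 0.26 between VEGFD replicates, and Igf2r, at -0.53 and -0.42, went the other way. The second Igfbp5 probe set, below the filter, had 18.9 and 17.3 on Apex arrays and did not repeat the Apex difference. Igfbp4 differed by 0.87 between Apex replicates, and by 1.74 between VEGFD replicates.

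**Figure D4:**
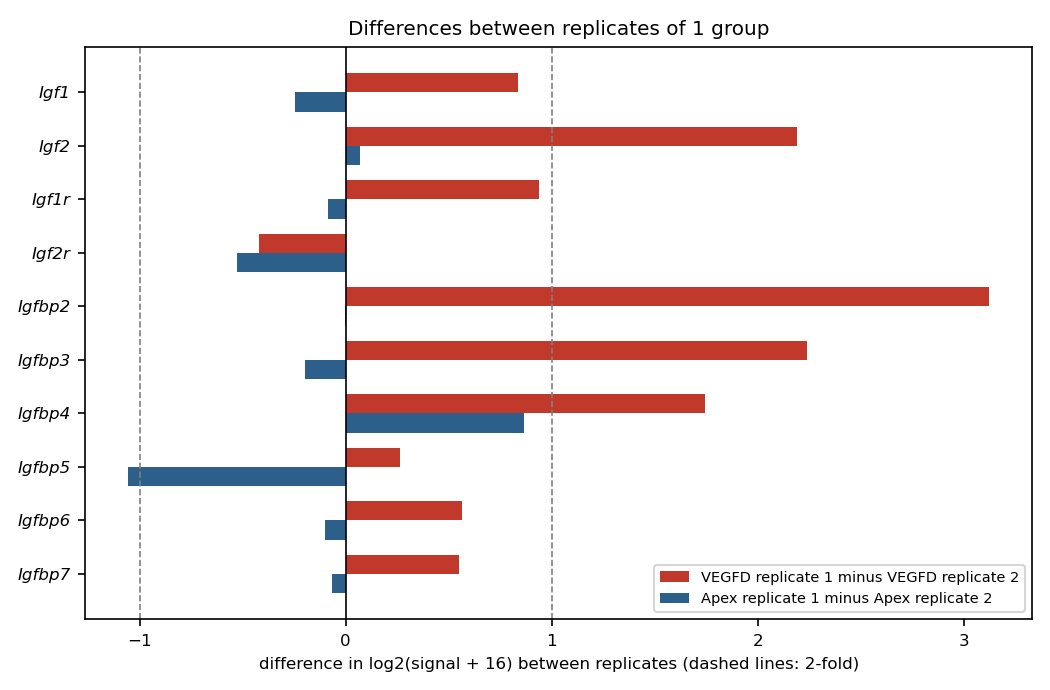
Difference in log2(signal + 16) between the replicates of a group (horizontal axis), for VEGFD replicates (red, replicate 1 minus 2) and Apex replicates (blue, replicate 1 minus 2), with dashed lines at 2-fold. The VEGFD bars of Igfbp2, Igfbp3, Igf2 and Igfbp4 run past 2-fold, at 3.12, 2.24, 2.19 and 1.74, and among Apex bars that of Igfbp5 does, at -1.05.

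Leaving out VEGFD replicate 1 put 3 of the 10 genes past the limma threshold, all lower, against 3.19% of all tested genes passing in that fit and 2% passing lower. They were Igfbp4 (log2 change -2.21, adjusted p = 0.0318), Igfbp3 (-1.38, adjusted p = 0.0397) and Igf2 (-1.96, adjusted p = 0.0400). This fit holds 1 VEGFD array and takes its spread from the Apex arrays, so it holds no variation between VEGFD samples. Without VEGFD replicate 2 no gene of the family passed, and Igfbp3 (0.86) and Igf2 (0.23) lay above 0. The direction of these genes therefore depended on which VEGFD array was kept, except for Igfbp4, which was below 0 either way. Cell-type markers also differed between the VEGFD arrays. The summed signal of 8 smooth muscle and pericyte markers was 9311 on VEGFD replicate 1 and 18266 on VEGFD replicate 2, against 7506 and 8734 on Apex replicates, with 5, 6, 5 and 7 of the 8 above 25.3 in that order. The pan-endothelial sums given above were higher in VEGFD replicate 1, with 6, 3, 6 and 11 of 12 markers above 25.3 in the same order. The part of these markers in the IGF family values was not tested.

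The upstream sequences of Igfbp2, Igfbp3 and Igfbp4 are shown because these are the binding protein genes with at least 2-fold between VEGFD arrays. Each is the 250 bases before an annotated start, 5′ to 3′ on the gene's strand, from RefSeq on GRCm38.p6, with the letters GGGCGG and TATAAA, searched on both strands, in capitals. They were read from chr1:72824230-72824479 (plus strand, the first of 2 listed Igfbp2 starts), chr11:7213924-7214173 (minus strand) and chr11:99040994-99041243 (plus strand).
Igfbp2: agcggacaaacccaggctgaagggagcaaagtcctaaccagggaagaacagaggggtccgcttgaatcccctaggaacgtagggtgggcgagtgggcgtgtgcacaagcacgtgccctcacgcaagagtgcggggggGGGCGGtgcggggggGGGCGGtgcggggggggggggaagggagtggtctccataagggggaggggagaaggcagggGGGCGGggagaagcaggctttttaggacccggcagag
Igfbp3: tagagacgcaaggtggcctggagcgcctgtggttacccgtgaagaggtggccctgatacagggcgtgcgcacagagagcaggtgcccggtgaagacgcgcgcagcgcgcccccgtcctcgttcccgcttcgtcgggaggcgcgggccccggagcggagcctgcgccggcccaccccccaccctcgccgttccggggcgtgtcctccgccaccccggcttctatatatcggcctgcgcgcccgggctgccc
Igfbp4: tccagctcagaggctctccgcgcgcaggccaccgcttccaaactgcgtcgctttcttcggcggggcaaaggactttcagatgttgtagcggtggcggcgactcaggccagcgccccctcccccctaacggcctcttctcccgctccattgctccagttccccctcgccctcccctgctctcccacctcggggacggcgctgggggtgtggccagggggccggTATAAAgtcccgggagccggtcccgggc
GGGCGG is the core of the GC box bound by Sp-family factors, and TATAAA is a common form of the TATA box. The Igfbp2 window held 3 copies of GGGCGG, the Igfbp4 window 1 TATAAA that began 28 bases before the start, and the Igfbp3 window neither exact string. Other forms of the TATA box were not searched for, and the Igfbp3 window reads tatatat near its end. Of all 32851 such windows, 32.7% held GGGCGG and 12.4% held TATAAA. The 3 windows were 67.2%, 73.2% and 69.2% G or C, against a median of 52.4% over all windows. Matches of letters are a description and do not show binding. By gene order in RefSeq, Igfbp2 neighbours Igfbp5 and Igfbp3 neighbours Igfbp1, yet Igfbp5 differed between VEGFD arrays by 0.26 where Igfbp2 differed by 3.12.

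Other genes of IGF release and signalling were taken from a list of 36, of which 31 had a single-gene probe set and 27 passed the filter. Of the 27, 0 passed the limma threshold, 8 were above and 19 below 0, and 14 were above and 13 below with arrays centred on their medians. The median log2 change of the list was -0.11. Without overlap, 2 of 27 were higher, against 16.6% of all tested genes, and 8 of 27 were lower, against 21.8%. At an unadjusted p below 0.05 there were 4 of 27, Pappa, Irs1, Pik3r1 and Foxo3, against 5.7% of all tested genes.

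Among genes that govern release of IGFs, Pappa encodes the protease PAPP-A, which cuts the Igfbp4 product. Pappa had signals of 579 and 268 on VEGFD arrays, against 198 and 51.8 on Apex arrays. Both VEGFD arrays lay above both Apex arrays, with a log2 change of 1.77 ± 0.64 (95% interval 0.15 to 3.39) and an adjusted p of 0.823. The order of the groups was opposite to that of Igfbp4, but within each group replicate 1 was the higher array for both genes. At least 2-fold higher without overlap were 1.09% of all tested genes and, of the list, Pappa alone. The log2 change of Pappa ran from 0.94 without Apex replicate 2 to 2.60 without Apex replicate 1, and averaged probe sets gave 1.23. Its inhibitors did not share one pattern: Stc2, a stanniocalcin gene, had 171 and 41.9 on VEGFD arrays, against 126 and 143 on Apex arrays, and Stc1 had 46.7 and 33.3, against 17.1 and 75.3. Both overlapped between groups, with log2 changes of -0.53 ± 0.57 and 0.015 ± 0.53. Stc2, like Igf2 and Igfbp3, was highest in VEGFD replicate 1 and lowest in VEGFD replicate 2.

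Htra1 and Adam12 encode further proteases known to cut IGF binding proteins, and Htra3 a relative of Htra1. Htra1 had signals of 1061 and 1439 on VEGFD arrays, against 1491 and 1644 on Apex arrays, and Htra3 had 77.1 and 38.2, against 161 and 84.0. Both were lower without overlap, with log2 changes of -0.34 ± 0.24 and -0.91 ± 0.42. With 1 array dropped they ran from -0.56 (VEGFD replicate 2 dropped) to -0.12 (VEGFD replicate 1 dropped) for Htra1, and from -1.32 (Apex replicate 2 dropped) to -0.49 (Apex replicate 1 dropped) for Htra3. Averaged probe sets gave -0.48 for Htra3. Adam12 had 170 and 939 on VEGFD arrays, against 333 and 381 on Apex arrays. It ran opposite to the binding proteins between VEGFD arrays. Its log2 change of 0.18 ± 0.76 became -1.0 without VEGFD replicate 2 and 1.36 without VEGFD replicate 1, each from a fit that holds 1 VEGFD array. Igfals, whose product stabilizes the carrier complex in blood, and Igfbp1, a liver binding protein gene, were at or below 24.3 and 17.5 on all arrays and lay below the filter.

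On the receptor side, Ghr, the growth hormone receptor gene that acts upstream of IGF-1, had signals of 3165 and 1475 on VEGFD arrays, against 1742 and 1345 on Apex arrays. The groups overlapped, and the log2 change was 0.49 ± 0.40. Insr, the insulin receptor gene, had 206 and 130 on VEGFD arrays, against 195 and 148 on Apex arrays, and a log2 change of -0.050 ± 0.31 that was 0.073 with arrays centred on their medians.

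Irs1, which encodes an adaptor that links the IGF and insulin receptors to PI3 kinase, had signals of 173 and 164 on VEGFD arrays, against 331 and 478 on Apex arrays. Both VEGFD arrays lay near one another and below both Apex arrays, and the log2 change was -1.17 ± 0.27 (95% interval -1.85 to -0.48) with an adjusted p of 0.782. At least 2-fold lower without overlap were 2.79% of all tested genes and, of this list, Irs1 alone. With any 1 array left out Irs1 stayed between -1.42 and -0.91. Irs2, its relative, had 27.8 and 32.0 on VEGFD arrays, against 47.3 and 22.6 on Apex arrays, and overlapped between groups, with a log2 change of -0.11 ± 0.35 that was 0.015 with arrays centred on their medians. Grb10, which encodes a brake on these receptors, had 2010 and 1444 on VEGFD arrays, against 1367 and 925 on Apex arrays, higher without overlap and with a log2 change of 0.59 ± 0.30. Dropping Apex replicate 2 gave 0.32 for Grb10, and dropping Apex replicate 1 gave 0.87.

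Downstream, Pik3r1, the gene of a PI3 kinase regulatory subunit, and Foxo3, a transcription factor gene restrained by this pathway, had log2 changes of -0.93 ± 0.32 and -0.91 ± 0.31. The related Foxo1 had 280 and 129 on VEGFD arrays, against 389 and 333 on Apex arrays, lower without overlap and with a log2 change of -0.86 ± 0.39. Without VEGFD replicate 1, in the fit that holds 1 VEGFD array, the log2 changes were -1.37 for Foxo1 and -1.28 for Foxo3. The kinase genes Akt1 and Akt2 had log2 changes of -0.038 and -0.016. Among mRNA-binding proteins named for Igf2 mRNA, Igf2bp3 had 264 and 208 on VEGFD arrays, against 268 and 203 on Apex arrays, with a log2 change of 0.0065 ± 0.27 that was -0.015 after quantile normalization. Igf2bp1 lay below the filter, at most 36.7 on any array. H19, Igf2bp2 and Ins1 were not analysed here.

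**Figure D5:**
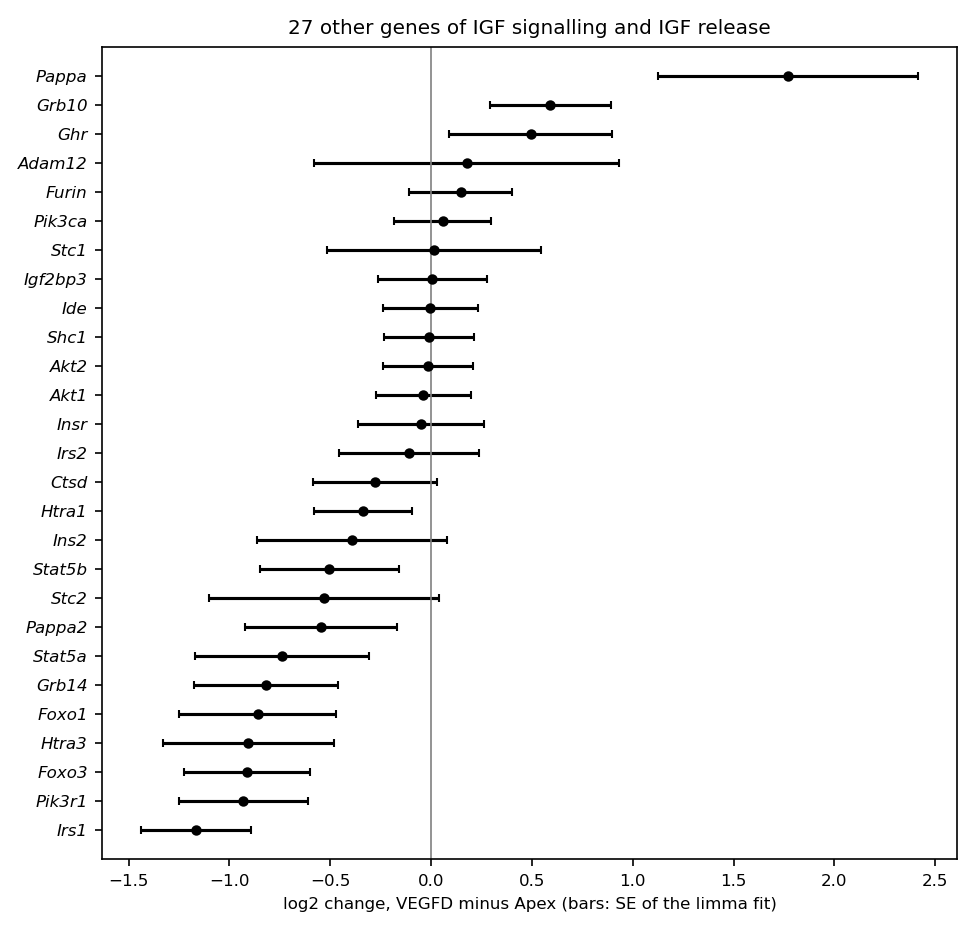
Log2 change, VEGFD minus Apex, in units of log2(signal + 16) (horizontal axis), of the 27 other IGF pathway genes that passed the filter, with the SE of the limma fit (bars, n = 2 and 2). Pappa lies highest at 1.77 and Irs1 lowest at -1.17, and no gene passed an adjusted p of 0.05.

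The 3 tested genes whose values over the 4 arrays were nearest to those of Igfbp4, after each gene was centred on its own mean, were Sesn1, Abca8a and S100b. Their root mean square differences from Igfbp4 were 0.095, 0.19 and 0.20 in log2 units over 4 arrays, and 15 of 11676 genes lay within 0.25. Sesn1 had signals of 268 and 65.6 on VEGFD arrays, against 448 and 232 on Apex arrays.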

How the data were processed

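RNA of 4 samples was measured on Affymetrix mouse arrays after biotin labelling, per the labels. The deposited values are linear intensity, 1 signal per probe set. As found from the deposited values, each array had a mean of 150.001 after trimming 2% at each end. No detection calls were used, with software and genome build not given in the sources used here. Of 45101 probe sets, 64 were controls and 34945 had 1 gene symbol. The 28 probe sets of the family matched GRCm38.p6 by gene ID and symbol.

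Values were used as log2(signal + 16), so fold changes of dim genes are understated. Genes were tested when the mean of their brightest probe set reached the median over non-control probe sets (a signal of 25.3). Groups were tested by limma (version 3.58.1, under R 4.3.3), with lmFit and trended eBayes, two-sided, without a block, with Benjamini-Hochberg adjustment over 11677 genes. Every adjusted p is from limma. Having 2 arrays a group limits the precision. The fit was tested on simulated data. Alternatives covered scaling, pseudocount, filter, probe sets, trend, the replicate number as a block, and leaving out each array. The family, the lists and the rule for named genes (all 10 members, fixed pathway and marker genes, any pathway gene that passed, and the 3 genes nearest to the member with the largest change) were chosen with earlier results of these data known. Pik3r1, Foxo1, Foxo3, Akt1 and Akt2 were named after their values were seen.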

Additional observations from a re-analysis of the deposited data

How the results depend on the processing

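Over all genes, 6 passed with the replicate number as a block, 0 in the fit without it, and 0 to 372 with 1 array left out (372 without VEGFD replicate 1, 4 without VEGFD replicate 2). The correlation of same-numbered arrays' deviations, over 11677 genes, was 0.20 for the only pair of numbers, and the labels do not say that numbers pair the samples. The replicate block put no IGF family or pathway gene past the threshold, with Igfbp4 at an adjusted p of 0.341. Genes 2-fold apart without overlap numbered 453, against 231 with a pseudocount of 64, 261 with a stricter filter (a signal of 100), and 442 to 1348 with 1 array left out. Family genes of that kind numbered 1, against 0 with arrays centred on their medians or averaged probe sets, and 0 to 3 with 1 array left out. Family and pathway genes that passed each numbered 0 to 3 with 1 array left out, all 3 without VEGFD replicate 1. Family genes 2-fold higher in VEGFD replicate 1 than in VEGFD replicate 2 numbered 4, against 5 with a pseudocount of 1 and 2 with a stricter filter. The shares of all tested genes were 6.56%, 8.7% and 6.16% in that order. The stricter filter kept 6 of the 10 and removed Igfbp2 and Igf2. These alternatives for the difference between VEGFD arrays were chosen after seeing the data.

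With 1 array left out, log2 changes ran from -0.48 to 0.35 for Igf1, -1.96 to 0.23 for Igf2, -0.71 to 0.23 for Igf1r, -0.82 to 2.31 for Igfbp2, -1.38 to 0.86 for Igfbp3, -2.21 to -0.47 for Igfbp4 and -0.63 to 0.43 for Igfbp5. They ran from -0.053 to 1.04 for Ghr, -0.35 to 0.25 for Insr, -0.46 to 0.25 for Irs2, -0.18 to 0.19 for Igf2bp3, -0.72 to 0.75 for Stc1, -1.38 to 0.31 for Stc2 and -1.0 to 1.36 for Adam12. With arrays centred on their medians the sign turned for Igf1 (0.057), Igfbp5 (0.021), Insr (0.073) and Irs2 (0.015), and after quantile normalization for Igf1 (0.031), Irs2 (0.028) and Igf2bp3 (-0.015). With averaged probe sets it turned for Igf1 (0.059), Igf1r (0.18), Igfbp3 (0.0024), Insr (0.44) and Igf2bp3 (-0.0012), and with a pseudocount of 64 for Stc1 (-0.035). The cause was not tested. Igf2r, Igfbp4, Igfbp6 and Igfbp7 kept their sign under every alternative run. No detection calls were used, so signals below 25.3 have no stated limit against background.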
